A study of Mus musculus with 6 samples.

Results

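Macrophage marker transcripts were followed in LPS-matured dendritic cells with and without Mettl3, the catalytic subunit of the RNA methyltransferase complex that writes N6-methyladenosine (m6A). They were 7 genes of the 23836 in the expression table, taken by name: the complement subunits C1qa, C1qb and C1qc, the lipid carrier Apoe, and the receptors Csf1r, Mertk and Mrc1. Of these, 6 passed a filter of at least 1 RPKM (reads scaled to the length of the transcript and to the mapped reads of the library) as the mean of all libraries, as did 10531 genes in total, and Mrc1, at a mean of 0.583 RPKM, did not.

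The KO cells came from Mettl3 fl/fl CD11c-Cre mice, in which Cre driven by the CD11c promoter removes exons 2 to 4 of Mettl3, and the WT cells from littermates without the deletion, all C57BL/6 and 6 weeks old. Bone marrow was cultured in GM-CSF at 10 ng/ml with IL-4 added at 1 ng/ml, CD11c-positive cells were taken on beads, and these received LPS for 24 h at 100 ng/ml. The cells of each genotype were then divided into 3 parts, for 6 h, 3 h or no exposure to actinomycin D, a drug that blocks transcription, so that the loss of an mRNA can be read over time. There was 1 library for each genotype and time, and the titles carry the tag D2 for all KO libraries and D3 for all WT libraries, so an effect of that tag and an effect of the genotype cannot be told apart. With no replicate there was no test and no p-value, and the 3 times of a genotype are parts of 1 culture, so an SD over times is a spread within that culture pair. The paper's methods name 2 pairs of mice for the lifetime experiment. How these pairs relate to the libraries used here is not given.

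C1q is the recognition molecule that starts the classical complement pathway, and it is built from equal numbers of A, B and C chains, each encoded by its own gene and all made mainly by macrophages and related myeloid cells. Apolipoprotein E carries lipid out of cells, the receptor encoded by Csf1r binds CSF-1 and IL-34 and keeps macrophages alive, and MERTK takes up dying cells through the bridging proteins GAS6 and protein S. MRC1 is the mannose receptor CD206, which rises in macrophages exposed to IL-4. Marrow cultured with GM-CSF yields dendritic cells together with macrophage-like cells, and both can carry CD11c.

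The 3 C1q genes lie within 18.7 kb of chromosome 4 (GRCm38, 136880126 to 136898844). Promoter windows of RefSeq (GRCm38.p6, 250 bases before to 50 bases after the start) are shown for C1qb and C1qc, neighbouring genes that encode chains of the same protein. Capitals mark GAGGAA, a purine-rich motif of the kind bound by PU.1, on either strand. The window of C1qb is chr4:136886151-136886450 and that of C1qc is chr4:136892865-136893164, both read on the minus strand.
C1qb: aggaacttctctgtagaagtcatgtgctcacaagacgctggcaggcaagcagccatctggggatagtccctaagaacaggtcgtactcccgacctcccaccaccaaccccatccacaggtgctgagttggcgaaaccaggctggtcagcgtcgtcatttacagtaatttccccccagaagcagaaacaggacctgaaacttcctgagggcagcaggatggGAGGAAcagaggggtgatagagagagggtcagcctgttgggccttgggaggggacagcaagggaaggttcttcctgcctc
C1qc: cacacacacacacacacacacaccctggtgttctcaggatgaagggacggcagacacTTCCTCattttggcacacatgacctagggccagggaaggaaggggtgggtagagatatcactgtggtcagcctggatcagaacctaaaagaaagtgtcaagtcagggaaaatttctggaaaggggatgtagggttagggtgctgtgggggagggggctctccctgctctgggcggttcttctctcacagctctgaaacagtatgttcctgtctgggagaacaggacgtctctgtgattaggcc

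The C1qb window held 1 GAGGAA, beginning at position -30 from the start. The C1qc window held 1 GAGGAA, on the opposite strand at position -193. Of 32851 promoter windows of the same length, 28.3% held GAGGAA on either strand, so such matches are common. They describe letters in the window and do not show a bound site.

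GGACT, the DNA spelling of the core motif at which the Mettl3 complex most often methylates RNA, was counted in the first-numbered isoform of each gene in GENCODE vM21. It occurred 3 times in C1qa (2.88 per kb), 3 times in C1qb (2.76 per kb), 2 times in C1qc (1.66 per kb), 6 times in Csf1r (1.55 per kb), 9 times in Mrc1 (1.68 per kb), 5 times in Mertk (1.16 per kb) and 1 time in Apoe (0.887 per kb). Among tested genes with such an isoform the median was 1.05 per kb and 88.8% had at least 1 copy. The sites of Apoe and C1qa, which stood apart most between the genotypes in level, are written with 10 bases on each side and GGACT in capitals, at positions counted from the 5′ end of that isoform. Whether any of them carries m6A was not measured in these libraries.
Apoe, position 21: tggaggctaaGGACTtgtttcggaa
C1qa, position 244: gctggcatccGGACTggtatccgag
C1qa, position 357: cggcccccaaGGACTgaagggcgtg
C1qa, position 963: agggcactgaGGACTgatgtttctg

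Depth was estimated at about 18400000 to 22700000 reads per library from the value of a single read. The search for that value was limited to a fixed range, so a much deeper or shallower library could not appear as such. Whether the libraries were of similar depth was therefore not tested. ERCC spike-in RNA was added in proportion to total RNA, so amounts scaled to it are mRNA per total RNA, and not mRNA per cell. The KO library at 6 h stood apart: on ERCC-scaled amounts 83.5% of tested genes were higher at 6 h than at 3 h in KO, against 0.864% in WT, although both were in actinomycin D. The median tested gene, as log2 KO over WT on ERCC-scaled amounts, stood at 0.40 before the drug, -0.26 after 3 h and 1.19 after 6 h, so levels were compared relative to the median gene of each library pair, which was at 0.02, -0.00 and 0.09 in RPKM. Mettl3 itself had, at 0, 3 and 6 h, 6.99, 4.83 and 4.06 RPKM in KO, against 7.79, 2.68 and 2.59 RPKM in WT. This does not check the labels, because RPKM is taken over the whole gene and only exons 2 to 4 are deleted.

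The 7 transcripts spanned a wide range and kept the same order of RPKM in all 6 libraries, with Apoe highest, then Csf1r, C1qb, C1qc, C1qa, Mertk and Mrc1. C1qa and Mertk in WT at 0 h, at 3.602 and 3.431 RPKM, lay within their counting errors of 10.8% and 5.46%. All other neighbours in that order were further apart than their counting errors, though nothing here measures the spread between cultures. In bulk RNA, more cells of a type and more RNA per cell cannot be told apart.

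The 3 C1q subunits were all at higher RPKM in KO than in WT at each time. C1qa, the A chain, had 6.02, 8.41 and 8.09 RPKM in KO at 0, 3 and 6 h, against 3.602, 5.39 and 2.88 RPKM in WT. Every KO value of C1qa was above every WT value, though the closest, 6.02 and 5.39 RPKM, had counting errors of 8.82% and 9.09%. C1qb, the B chain, had 29.1, 44.4 and 46.0 RPKM in KO, against 22.6, 37.3 and 29.4 RPKM in WT. Here the genotypes overlapped, since WT at 3 and 6 h was above KO at 0 h. C1qc, the C chain, had 20.3, 23.5 and 20.5 RPKM in KO, against 14.4, 17.9 and 10.9 RPKM in WT, with no overlap. The share of all tested genes without such overlap was not counted, and the 3 times of a genotype are not replicates.

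Although the chains are used in equal numbers, their transcripts were not at equal levels per length. C1qb stood above C1qa by 4.83, 5.28 and 5.69 times in KO at 0, 3 and 6 h and by 6.28, 6.92 and 10.2 times in WT. The largest of these, WT at 6 h, rests on about 61.9 reads of C1qa. C1qb stood above C1qc by 1.43, 1.89 and 2.24 times in KO and by 1.57, 2.09 and 2.69 times in WT. In both genotypes the C1qb to C1qc ratio was lowest at 0 h and highest at 6 h. The summed C1q RPKM was 55.4, 76.2 and 74.7 in KO, against 40.6, 60.5 and 43.2 in WT.

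Apoe (RefSeq, GRCm38.p6, chr7:19696244-19701310) was the most abundant member and had the highest KO over WT ratio of the 7 on average. It had 322, 516 and 641 RPKM in KO at 0, 3 and 6 h, against 138, 250 and 253 RPKM in WT. The lowest KO value was above the highest WT value, a separation whose share over all tested genes was not counted. At 6 h Apoe stood at percentile 98.6 of tested genes in KO and at percentile 97.1 in WT, and at 0 h at percentiles 97.2 and 94.3. Its counts, about 3541 to 13296 reads, give counting errors of at most 1.68%.

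Csf1r, the receptor that defines the CSF-1 dependent lineage, was abundant and close between the genotypes before the drug. It had 132, 133 and 130 RPKM in KO, against 127.5, 129.5 and 97.8 RPKM in WT. The 3 KO values lay above the 3 WT values, but only at 6 h by more than a few percent. The closest, 130.4 RPKM in KO at 6 h and 129.5 RPKM in WT at 3 h, lay within counting errors of 1.04% and 0.961%. Mertk (chr2:128698915-128803162) had 3.00, 1.93 and 1.88 RPKM in KO, against 3.43, 2.12 and 1.37 RPKM in WT. KO was below WT at 0 and 3 h and above it at 6 h. Relative to the median gene, the 95% counting intervals of its log2 ratio all held 0. They were -0.44 to 0.02 at 0 h, -0.42 to 0.16 at 3 h and -0.00138 to 0.69 at 6 h. Mrc1 (chr2:14229414-14332023) was near the limit of what these libraries hold, with 0.594, 0.930 and 0.570 RPKM in KO, against 0.325, 0.729 and 0.350 RPKM in WT, from about 38.9 to 110 reads. Its highest value was at 3 h in both genotypes, and the genotypes overlapped.

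**Figure D1:**
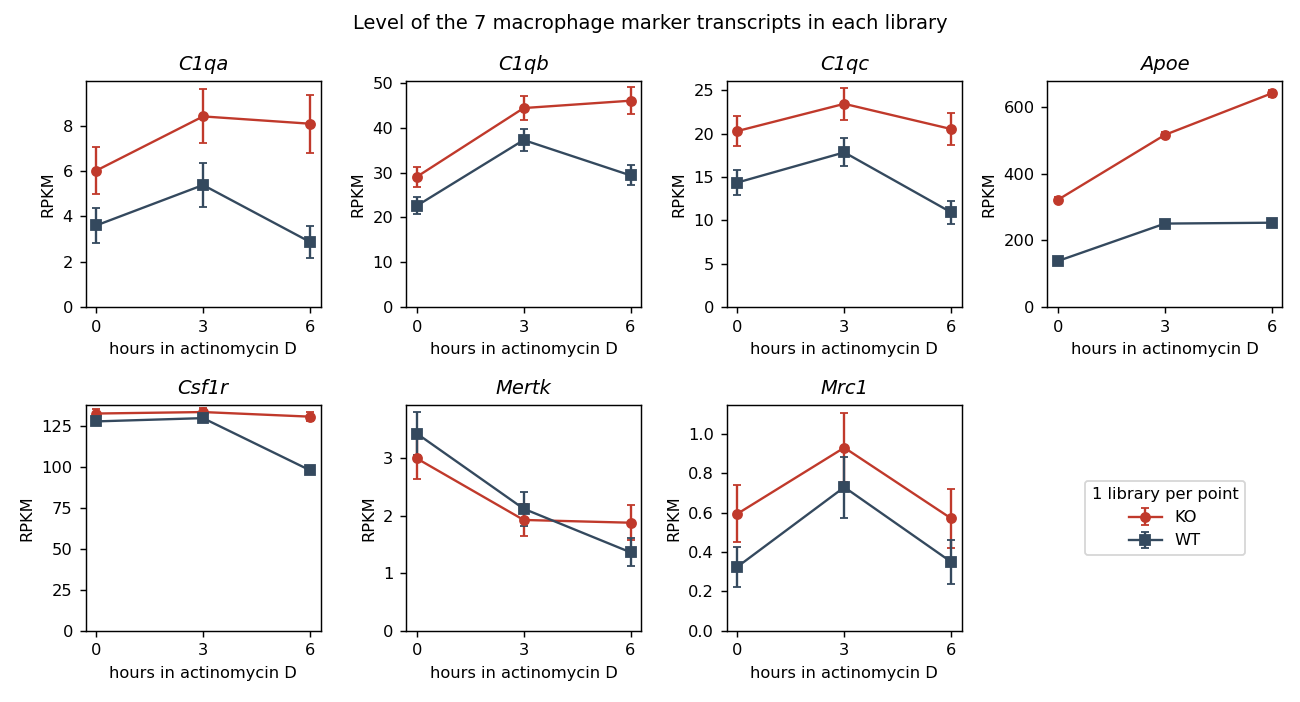
RPKM of each member (vertical axis, from 0) against hours in actinomycin D (horizontal axis), with 1 library per point, KO as red circles and WT as dark squares. Bars are 95% counting intervals and hold no spread between cultures. Apoe, C1qa, C1qc and Csf1r had every KO value above every WT value, for Csf1r only within counting error. The share of all tested genes that separate in this way was not counted. The Mertk estimates crossed between 3 and 6 h.

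Relative to the median gene, the log2 KO over WT level averaged over the 3 times was 1.16 ± 0.11 for Apoe, 0.90 ± 0.41 for C1qa, 0.56 ± 0.22 for C1qc, 0.49 ± 0.19 for Mrc1, 0.38 ± 0.16 for C1qb, 0.13 ± 0.17 for Csf1r and -0.00 ± 0.30 for Mertk (SD over the 3 times). Apoe was thus 2.24-fold and C1qa 1.87-fold higher in KO. Among tested genes these averages stood at percentile 99.0 for Apoe, 98.2 for C1qa, 95.2 for C1qc, 90.1 for C1qb, 70.0 for Csf1r and 50.4 for Mertk. The median over all 7 members was 0.49, which is the value of Mrc1, and over the 6 that passed the filter 0.47, against -0.00 over all tested genes. Single tested genes lay between -0.57 and 0.77 in their middle 95%, and of the members Apoe and C1qa stood outside that range.

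A gene was counted as higher or lower where KO over WT, relative to the median gene, was at least 1.5-fold in 1 direction at all 3 times. Of the 6 members past the filter, Apoe and C1qa, 2 in all, were counted as higher, a rule met by 1.7% of tested genes (179 of 10531). None, 0 of 6, was counted as lower, against 0.845% of tested genes (89). C1qa was counted by a narrow margin, at 1.63-, 1.55- and 2.59-fold at 0, 3 and 6 h, with 95% counting intervals of the log2 ratio of 0.31 to 1.10, 0.31 to 0.96 and 0.95 to 1.80. It was not counted with a pseudocount of 1 RPKM in place of 0.1, nor on ERCC-scaled amounts, whereas Apoe was counted under both. On ERCC-scaled amounts 238 genes in all were higher and 9 lower.

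Apoe was at 2.29-, 2.06- and 2.38-fold at 0, 3 and 6 h, with log2 intervals of 1.14 to 1.25, 1.00 to 1.09 and 1.21 to 1.29. C1qc was at 1.39-, 1.31- and 1.76-fold and C1qb at 1.26-, 1.19- and 1.47-fold. The estimates were thus in the order C1qa, C1qc, C1qb at each time, but at 0 and 3 h their counting intervals overlapped. At 0 h the log2 intervals were 0.31 to 1.10 for C1qa, 0.28 to 0.66 for C1qc and 0.17 to 0.50 for C1qb. At 6 h only those of C1qa and C1qb were apart. Csf1r was at 1.02-, 1.03- and 1.25-fold. Of the 7 members, 6 were above the median gene at all 3 times, as were 26.7% of tested genes.

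The 6 h pair gave the highest ratio for 6 of the 7 members, Mrc1 being the exception, and for 38.3% of tested genes. By time, the median over the 7 members was 0.47 before the drug, 0.31 after 3 h and 0.56 after 6 h. Without the 6 h libraries it was 0.43, and Apoe and C1qa were counted as before. The 6 h values rest on the KO library in which most ERCC-scaled amounts stood above those at 3 h, and the part of that library in the higher 6 h ratios was not tested.

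**Figure D2:**
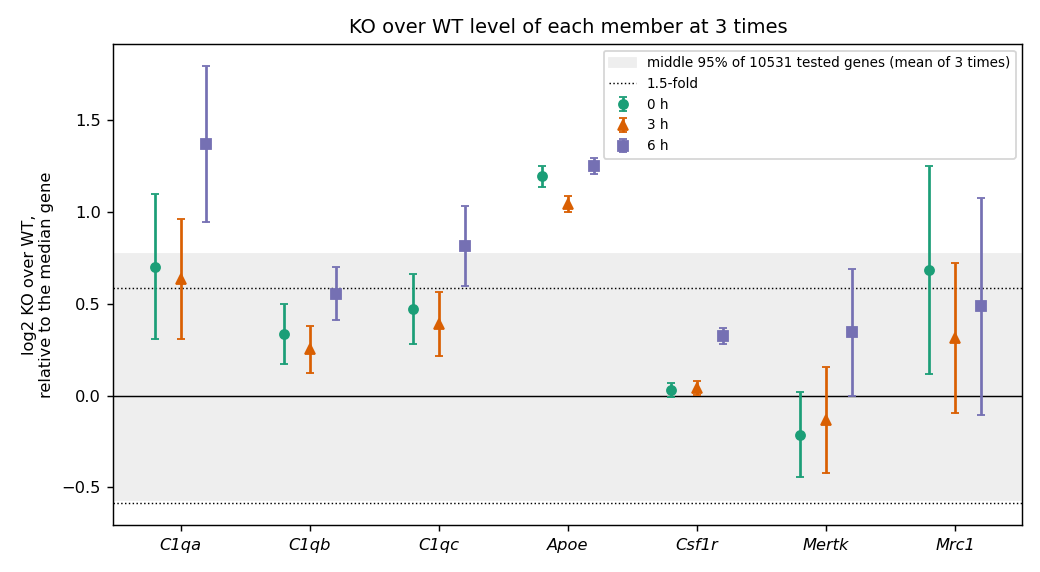
Log2 KO over WT level relative to the median gene (vertical axis) for each member at 0, 3 and 6 h, with 95% counting intervals. The grey band holds the middle 95% of tested genes, -0.57 to 0.77, as means over the 3 times, and dotted lines mark 1.5-fold. Apoe lies between 1.04 and 1.25 at all times, and 6 members have their highest point at 6 h.

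Under actinomycin D most members outlasted the typical transcript in both genotypes. The decay rate k is the loss in log2 units per h on ERCC-scaled amounts, taken once to 3 h and once to 6 h, each against 0 h. A half-life is 2 divided by the sum of those rates. Apoe had the longest half-life, 3.42 h in KO and 4.39 h in WT, against medians over all tested genes of 1.37 h in KO and 1.45 h in WT. Apoe was lost more slowly than 98.8% of tested genes in KO and 99.1% in WT.

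C1qb had a half-life of 3.01 h in KO and 3.42 h in WT, slower than 98.0% of genes in KO and 97.8% in WT. C1qa had 2.67 h in KO and 2.67 h in WT, and C1qc 2.21 h in KO and 2.36 h in WT. The order C1qb, C1qa, C1qc held in both genotypes, and the counting intervals of C1qb and C1qc did not overlap (2.75 to 3.34 h and 2.04 to 2.41 h in KO, 3.06 to 3.89 h and 2.14 to 2.63 h in WT). Those of C1qa, 2.23 to 3.33 h in KO and 2.14 to 3.54 h in WT, covered parts of both.

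Csf1r had 2.05 h in KO and 2.12 h in WT, slower than 88.0% of genes in KO and 84.4% in WT. Mertk had the shortest half-life, 1.55 h in KO and 1.51 h in WT, slower than 66.5% and 55.2% of genes, and so close to the median gene. Mrc1 had 2.51 h in KO and 3.63 h in WT, with wide counting intervals of 1.997 to 3.39 h and 2.47 to 6.82 h. All 7 were slower than the median gene in each genotype, and their median half-life was 2.51 h in KO and 2.67 h in WT.

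As a share of the amount at 0 h, Apoe stood at 37.4% at 3 h and 63.0% at 6 h in KO, against 65.5% and 34.9% in WT. C1qb stood at 35.6% and 50.03% in KO, against 59.6% and 24.8% in WT. Mertk stood at 15.3% and 20.2% in KO, against 22.8% and 7.93% in WT. The median gene moved the same way, at 12.2% and 15.3% in KO, against 19.3% and 8.66% in WT. The half-life of each member therefore depended on the time used. For Apoe it was 2.11 h from 3 h alone and 8.99 h from 6 h alone in KO, against 4.92 h and 3.96 h in WT, and for Csf1r 1.43 h and 3.57 h in KO, against 2.08 h and 2.17 h in WT.

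**Figure D3:**
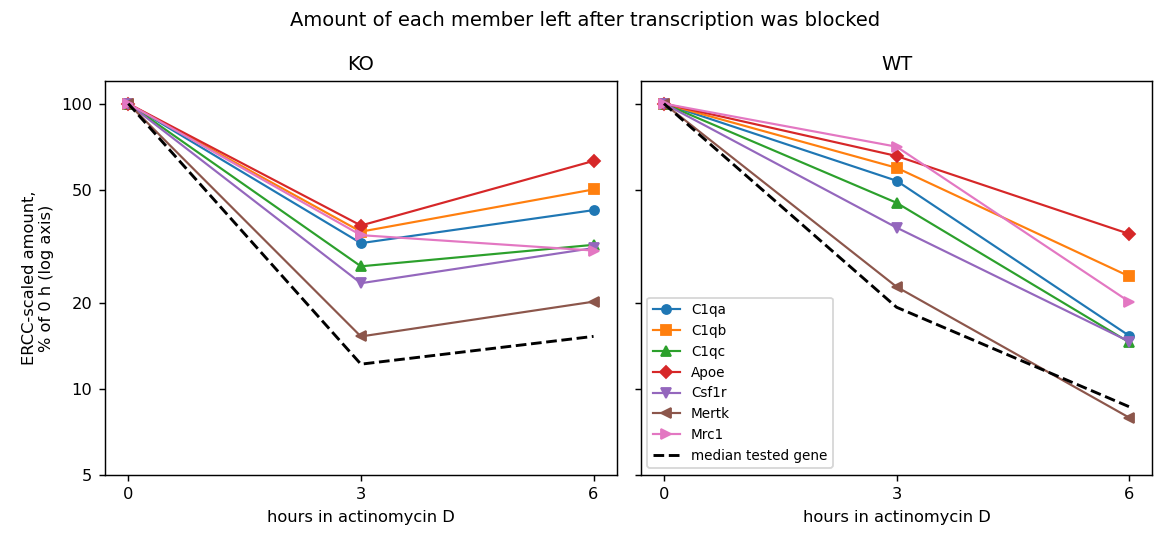
ERCC-scaled amount as a percentage of that at 0 h (vertical log axis) against hours in actinomycin D, for the 7 members and for the median tested gene (dashed), KO on the left and WT on the right, 1 library per point. In KO the median gene was at 12.2% at 3 h and 15.3% at 6 h, and in WT at 19.3% and 8.66%. Apoe stood highest of the members at 6 h in both panels.

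Relative to the median gene, which removes any factor of a whole library, the members gained on other transcripts in both genotypes, except Mertk in WT at 6 h. By 3 h Apoe gained 1.62 log2 units on the median gene in KO and 1.76 in WT, and by 6 h 2.04 in KO and 2.01 in WT. C1qb gained 1.54 in KO and 1.62 in WT by 3 h, and 1.71 and 1.52 by 6 h. Csf1r gained 0.94 in KO and 0.93 in WT by 3 h, and 1.03 and 0.76 by 6 h. For these genes the relative gain by 3 h was close between the genotypes. C1qa gained 1.41 in KO and 1.47 in WT by 3 h, but 1.47 and 0.83 by 6 h, and Mertk 0.32 and 0.24 by 3 h, but 0.40 and -0.13 by 6 h.

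A gene was counted as faster or slower in KO where half-lives differed at least 1.5-fold, after the median difference in k was taken off the KO rates, and k differed in the same direction to 3 h and to 6 h. Of the 6 members past the filter 0 were counted as faster, against 0.902% of tested genes (95), and 0 as slower, against 1.03% (108). With the median gene taken off, k in KO minus k in WT came to 0.0199 per h for Apoe, with a counting interval of 0.00325 to 0.0364, and its sign differed between 3 h (0.0489) and 6 h (-0.00916). It was -0.0269 for Csf1r (-0.0390 to -0.0149), -0.0603 for Mertk (-0.141 to 0.0206), -0.0450 for C1qa (-0.163 to 0.0734), -0.0155 for C1qc (-0.0741 to 0.0431), -0.00459 for C1qb (-0.0523 to 0.0431) and 0.0778 for Mrc1 (-0.0874 to 0.243). For the C1q genes the sign also differed between the times, positive to 3 h and negative to 6 h. These intervals cover counting error only.

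**Figure D4:**
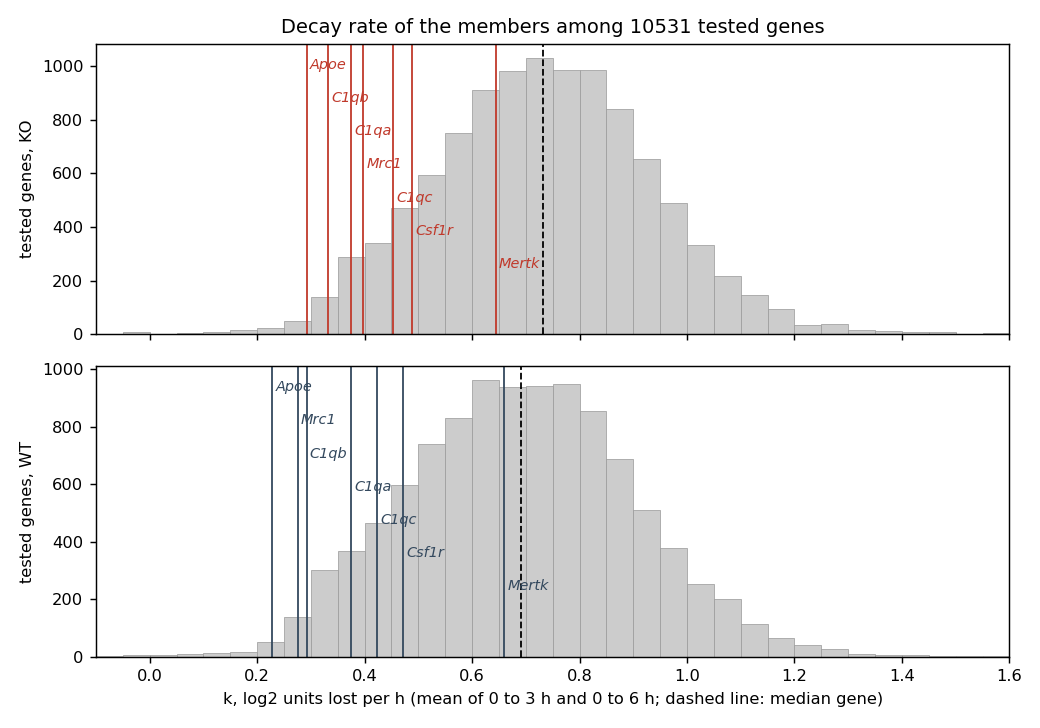
Number of tested genes (vertical axis) by decay rate k in log2 units per h (horizontal axis), KO above and WT below, with a line at each member's own rate and a dashed line at the median gene. All 7 members lie left of the dashed line in both panels, Apoe farthest left, with half-lives of 3.42 h in KO and 4.39 h in WT, and Mertk nearest to it.

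The genes whose profile over the 6 libraries was most like that of each member were found by the root mean square difference of log2 levels, each centred on the median gene of the library and on the gene's own mean, among genes that averaged 5 RPKM or more. This is a description over 6 libraries that share cultures. For Apoe the nearest were Pltp, a phospholipid transfer protein (difference 0.12), Rnase2a (0.17) and Slamf9 (0.18). Apoc2, an apolipoprotein that activates lipoprotein lipase, was nearest to C1qa (0.14), followed by Ms4a6b and Snapc5. C1qb lay nearest to Cfp, which encodes the complement factor properdin (0.03), then Ms4a6c and Cd38. Tgfbi (0.04), Pld4 and Clec4a3 were nearest to C1qc. For Csf1r the nearest were Gpnmb, a glycoprotein of lysosome-rich macrophages (0.03), Sdhb and Ebp. Mertk was nearest to Ptdss1 (0.05), Diap1 and Clpp, and Mrc1 to Cxcl14 (0.15), Penk and Ly6i. The mean profile of the 7 members was nearest to those of Pld4, Lamtor4 and Hypk.

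Between members, by the same measure, C1qa and C1qc differed by 0.22, Mrc1 and C1qc by 0.24, and Csf1r and C1qc by 0.24. Mrc1 and C1qb differed by 0.284, Mrc1 and C1qa by 0.299, C1qb and C1qc by 0.304, and C1qa and C1qb by 0.341. The farthest apart were Apoe and Mertk, by 1.00.

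Other macrophage markers were present at high levels, which bears on the name of the set, but several that define resident macrophages were not. Of 23 further markers, 18 passed the filter, and their median KO over WT level was 0.25, against -0.00 over all tested genes, with 2 counted as higher and 0 as lower. Fcgr1, the high-affinity IgG receptor CD64, had 58.8, 72.3 and 82.7 RPKM in KO at 0, 3 and 6 h, against 18.5, 20.1 and 15.1 RPKM in WT (log2 ratio 1.94 ± 0.37 SD over times). Siglec1, a sialic acid receptor of macrophages, had 16.5, 18.7 and 14.1 RPKM in KO, against 7.52, 8.18 and 5.20 RPKM in WT (1.21 ± 0.12). Lyz2, lysozyme, was the most abundant, between 4875 and 5953 RPKM in KO and between 3644 and 4900 RPKM in WT. The co-receptor for LPS, Cd14, was lowest in the ratio at -0.29 ± 0.27, and Adgre1, which encodes F4/80, was at -0.28 ± 0.07. Cd68, a lysosomal glycoprotein, was at 0.05 ± 0.20 and Gpnmb at 0.09 ± 0.21. Cd163 was at 0 in all 6 libraries, and Timd4, Vsig4 and Lyve1 were at or under 0.133 RPKM.

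Markers of other cell types were compared in the same way. Of 14 tested dendritic cell markers 2, Dpp4 at -0.89 ± 0.04 and the MHC class II transactivator Ciita at -0.73 ± 0.07, were counted as lower and 0 as higher, with a median of -0.16. Their summed level, led by Ccl22, was 8984 to 13010 RPKM in KO and 10070 to 15095 RPKM in WT, and Irf8 was highest in the ratio at 0.15 ± 0.19. Of 4 tested monocyte markers 3 were counted as higher (among them Ccr2 at 1.66 ± 0.34), with sums of 574 to 656 RPKM in KO and 417 to 604 RPKM in WT, of which Ly6c2 (0.15 ± 0.24) held most.

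Of 9 tested neutrophil markers 3 were counted as higher (Ltf at 1.84 ± 0.51, Ngp and Cxcr2) and 1, Mmp8 at -1.12 ± 0.45, as lower. Their sums, led by S100a8, were 2463 to 10286 RPKM in KO and 2598 to 4213 RPKM in WT, while the granule genes Mpo and Elane were at or under 0.583 RPKM throughout. Of 3 tested stromal markers 2 were counted as higher, Col1a1 at 1.10 ± 0.18 and Col1a2 at 1.03 ± 0.37, with Dcn at 0.61 ± 0.38 and sums of 8.64 to 12.3 RPKM in KO and 4.36 to 5.28 RPKM in WT. Tested lymphocyte (3), mast cell and basophil (2) and osteoclast (3) markers gave 0 counted in either direction of level, with Cd3e at 0.31 and Cd3d at 0.08, Mcpt8 at 0.03 and Cpa3 at -0.74, and Ctsk at 0.53, Acp5 at -0.10 and Dcstamp at -0.60. Dcn, Ctsk and Dcstamp were counted as slower in decay in KO, a rule met by 1.03% of tested genes. Their mean levels were low, at 2.12 RPKM for Dcn, 4.83 RPKM for Ctsk and 5.845 RPKM for Dcstamp. The part of any of these cell types in the members' levels was not tested.

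The lists of genes that work with the members gave different pictures. Some genes stand in 2 lists. In the lipid transport list around Apoe, 2 of 13 tested genes were counted as higher and 0 as lower, with a median of 0.41. Apoc2 had 103.7, 133 and 115 RPKM in KO, against 52.3, 69.8 and 47.4 RPKM in WT (1.03 ± 0.14), and Pltp 99.0, 152.9 and 175.8 RPKM in KO, against 46.7, 66.4 and 69.9 RPKM in WT (1.17 ± 0.10). Both are, like Apoe, known targets of the liver X receptors, and Nr1h3, which encodes one of these receptors, was at 0.89 ± 0.38 without meeting the rule at 0 h. Other targets of the same receptors, Abca1 at 0.60 ± 0.58, Abcg1 at 0.43 ± 0.28 and Mylip at 0.41 ± 0.37, were not counted. Apoc1, also of this list, was at 0.60 ± 0.78, with -0.28 at 6 h, and was not counted. The targets named here are not a full set for these receptors. Whether these receptors had a part in any of these levels was not tested. Lpl, lipoprotein lipase, was the most abundant of the list and the lowest in the ratio, at -0.54 ± 0.40. It was counted as slower in decay, with half-lives of 4.74 h in KO and 3.57 h in WT. Those half-lives differ by less than 1.5-fold, as they stand before the median difference in k was taken off the KO rates. The count was made after that step.

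In the complement list 1 of 15 tested genes, the C3a receptor C3ar1 at 1.06 ± 0.39, was counted as higher and 0 as lower, with a median of 0.11. The protease genes C1ra and C1s1, whose products join C1q to form C1, were at 0.45 ± 0.22 and 0.32 ± 0.14. Cd59a, which blocks the terminal pathway, was lowest at -0.57 ± 0.18, and Calr, which encodes the C1q-binding protein calreticulin, was the most abundant and stood at -0.13 ± 0.12. Serping1, the C1 inhibitor, was the 1 gene of the list counted as faster in decay in KO, with half-lives of 2.62 h in KO and 6.50 h in WT at a mean of 1.41 RPKM.

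Around Csf1r, 0 of 10 tested genes were counted in either direction, with a median of -0.08. Spi1, which encodes PU.1, was highest at 0.72 ± 0.34 and Cebpa lowest at -0.43 ± 0.17, and Csf2rb, the shared beta chain of the GM-CSF receptor, was the most abundant and stood at -0.04 ± 0.13. The ligand Csf1 was at -0.21 ± 0.19, and Il34 was at or under 0.0671 RPKM throughout. Around Mertk, 1 of 12 tested genes, the scavenger receptor Scarf1 at 0.68 ± 0.01, was counted as higher and 0 as lower, with a median of -0.08. Axl, the sister receptor of Mertk, was at 0.57 ± 0.21, Cd36 at -0.60 ± 0.17, and Mfge8, the most abundant, at 0.14 ± 0.20, while the ligands Gas6 and Pros1 stayed at or under 0.776 RPKM.

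Around Mrc1, 1 of 9 tested genes of the IL-4 response, arginase Arg1, was counted as higher and 0 as lower, with a median of 0.20. Arg1 had 14.4, 16.6 and 18.4 RPKM in KO, against 5.86, 7.42 and 4.59 RPKM in WT (1.43 ± 0.40). Chil3, the most abundant, was at 0.40 ± 0.20, and Ccl17 was lowest at -0.56 ± 0.26. Mgl2, a lectin, and the chemokine gene Ccl24 were counted as slower in decay in KO, a rule met by 1.03% of tested genes. Both were weakly expressed, at means of 1.15 RPKM for Mgl2 and 1.61 RPKM for Ccl24. The KO rate of Ccl24 was set to the floor of 0.02 per h, which gives 50 h, against 17.2 h in WT.

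**Figure D5:**
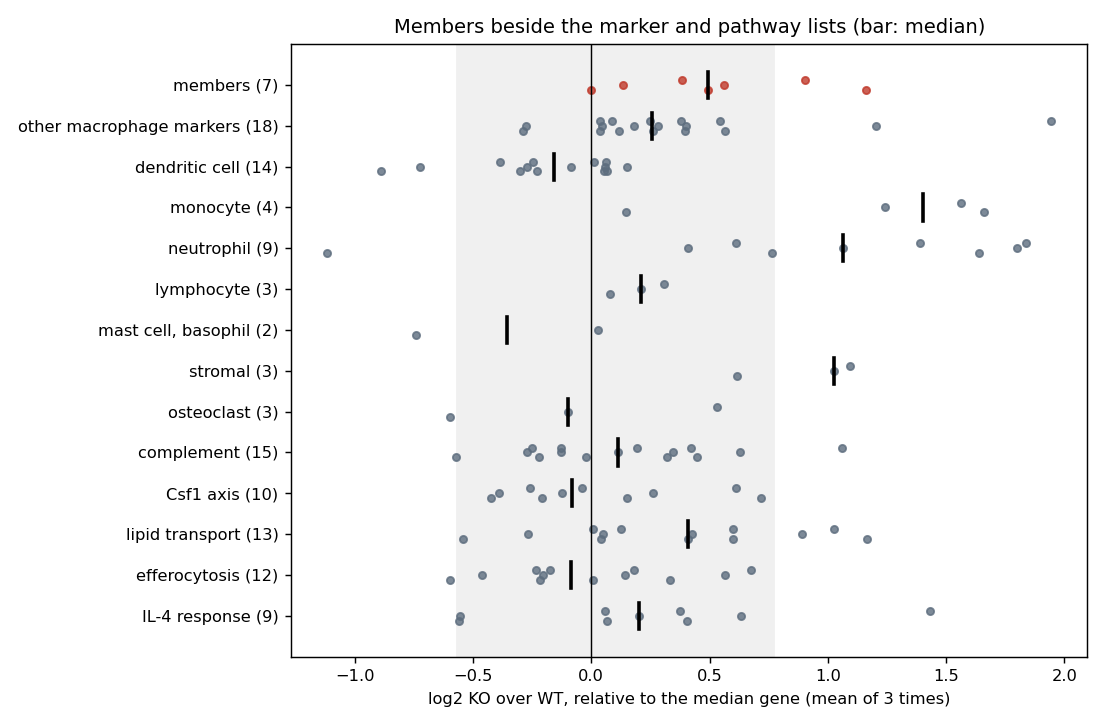
Log2 KO over WT level relative to the median gene, averaged over 3 times (horizontal axis), for all 7 members (red) and for the genes past the filter in each marker or pathway list (grey points, with the number of genes in brackets), the black bar being the median. The light band holds the middle 95% of tested genes. The members spread from -0.00 to 1.16, and the monocyte, neutrophil and stromal lists have medians of 1.40, 1.07 and 1.03.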

How the data were processed

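RNA-seq libraries of polyA RNA from 6 samples were used. The authors aligned reads to mm10 with TopHat2 2.0.14 and computed RPKM with Cuffnorm. Neither a gene annotation nor strand use was given in the sources used here. Each deposited column holds RPKM plus 1 multiplied by a factor, its lowest value, so RPKM was recovered as the value over that factor minus 1. A sheet of 92 ERCC transcripts was deposited the same way. The 2 lifetime columns hold the authors' own results and were not used, 0 columns matched no sample, and 27 rows whose names had turned into dates were left out.

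ERCC factors came from the median log2 ratio of 75 ERCC transcripts, above 0 in all libraries, to their geometric mean, relative to WT at 0 h, since the sheet used here gives no ERCC amounts for a calibration line. Ratios are of RPKM plus 0.1, a scale that understates differences of weakly expressed genes. Rates under 0.02 per h were set to 0.02 in decay counts. Depth was estimated from the value of 1 read in genes with a single isoform of at least 800 bases (GENCODE vM21). That value was sought only within a fixed range, and all counting intervals rest on the resulting depths. Reads per gene use the first-numbered isoform, and intervals cover counting error only, as reads are not independent molecules. Named genes were all members, the 3 nearest profiles to each, and of each list those with the highest and lowest ratio and the highest RPKM. Others were named after their values were seen. The members and lists were chosen with earlier results of these data known. Alternatives were other pseudocounts, filters, scalings, times and folds. Python 3.11.15, numpy 2.4.6, pandas 2.3.3 and matplotlib 3.10.9 were used. Some results are not reported here.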

Additional observations from a re-analysis of the deposited data

Results flagged for a closer look

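On ERCC-scaled amounts 6 of the 7 members were higher at 6 h than at 3 h in KO and lower in WT, opposite directions over the same interval in actinomycin D. Over all tested genes 83.5% were higher at 6 h in KO and 0.864% in WT, so the members' directions were those of most genes. The log2 change in KO was 0.75 for Apoe, 0.49 for C1qb, 0.41 for Csf1r, 0.41 for Mertk, 0.38 for C1qa and 0.25 for C1qc, against -0.91, -1.26, -1.33, -1.52, -1.80 and -1.62 in WT. The difference between the genotypes was not tested, as each rests on 1 library per time. The median tested gene changed by 0.35 in KO and -1.12 in WT. Relative to it, the members changed by between -0.53 and 0.40 in KO and by between -0.68 and 0.22 in WT. Mrc1 was lower at 6 h than at 3 h in both, by -0.18 in KO and -1.80 in WT.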

How the results depend on the processing

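No paired analysis was possible because each genotype and time had a single library and the result comes from no test. Among the medians and counts over the members, 5 alternative values moved and 61 did not. Of the 5, 3 were the count of members higher in KO, which was 1 in place of 2 with a pseudocount of 1 RPKM, on ERCC-scaled amounts and at a fold of 2, each time without C1qa. The members' median level was 0.94 on ERCC-scaled amounts, against 0.49, and 1 member, C1qa, was slower in KO by k from 3 to 6 h, against 0. A median counted as moved past its SD over times (levels) or past that of the half-lives from 3 h and from 6 h alone, which was wide in KO. The half-lives from 3 h and from 6 h alone thus set the limit by which they were judged, and their medians could hardly pass it. Many of the 61 were counts of 0 that stayed at 0, so the tally says little about robustness. Of the values of single members, 29 moved as well, 8 levels and 21 half-lives, and 143 did not. All 7 levels moved on ERCC-scaled amounts (0.441 to 1.604), and that of Mrc1 with a pseudocount of 1 RPKM (0.18). Half-lives reached 6.72 h for Apoe in WT with ERCC sums, 4.84 h for C1qa and 6.01 h for C1qb in KO from 6 h alone, 16.7 h for Mrc1 in KO from 3 to 6 h and 35.5 h for Csf1r in WT without scaling. Members' median half-lives were 1.85 and 3.65 h in KO, and 3.34 and 2.22 h in WT, from 3 h and from 6 h alone. The median half-life from RPKM without scaling could not be given in either genotype, nor k from 3 to 6 h in KO, since 5 or more of the 7 members were not lost. Averaged levels of 6 members were above 0 under all 9 alternatives for levels, and that of Mertk, -0.00 as reported, was below 0 under 3 and above it under the others. Over all tested genes the counts of higher and lower levels, 179 and 89, were 356 and 153 without the 0 h libraries, 275 and 169 without the 6 h libraries, 296 and 147 with all 18675 genes above 0, 99 and 55 at a mean of at least 5 RPKM, 61 and 24 at a fold of 2, and 123 and 58 with a pseudocount of 1 RPKM. Decay counts of 95 and 108 were 774 and 680 without ERCC scaling, 1176 and 915 from 3 to 6 h, 170 and 182 from 3 h alone, 144 and 144 with ERCC sums, 84 and 60 on ERCC-scaled amounts, 53 and 58 with a pseudocount of 1 RPKM and 42 and 49 at a fold of 2. The factor set against the WT 0 h library was an alternative chosen after seeing the data. Depth limits Mrc1 and C1qa, and the spread between cultures is unknown for all.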
